A study of Mus musculus with 36 samples.

Results

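The BCL-2 family was followed through RIPK1 activation in cultured mouse glia. The 10 genes were listed by name, with earlier results of these data known. They were 4 pro-survival genes (Bcl2, Bcl2l1, Mcl1 and Bcl2a1a), 5 BH3-only genes (Bmf, Bcl2l11, Bbc3, Pmaip1 and Bid) and the pore-forming gene Bax. All 10 were found once among the 15385 genes of the microglial table and once among the 14551 genes of the astrocyte table, and all 10 passed the filter on low values in both. In microglia Bcl2 reached the level of that filter in 10 of 24 libraries and passed it through T/5z and T/S/Z, where it was high. The libraries came from C57BL/6 mouse pups of 2 to 4 days, whose pooled brains were grown as mixed glia for 12 days. Microglia were then selected magnetically by CD11b, and astrocytes were taken from what remained by a further positive selection whose target the labels do not name. Brains were pooled and plated at 1 flask per mouse. Treatment lasted 4 h, with DMSO as the vehicle or with Nec-1s, which inhibits RIPK1 kinase activity. Microglia also received TNF and 5z-7, an inhibitor of TAK1 (TNF/5z-7, here T/5z), or TNF, a Smac mimetic and zVAD, which blocks caspases (TNF/Smac/zVAD, here T/S/Z). Each stimulus was also given together with Nec-1s, written T/5z/N or T/S/Z/N. Astrocytes were not given T/5z, so that stimulus was measured in microglia alone. Each treatment had 4 libraries in microglia and 3 in astrocytes, 36 in all. The labels number the replicates without saying what they were, while the methods describe replicates in general as biological and isolated cells as coming from different litters. P-values here measure the spread between these libraries.

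BCL-2 family proteins decide whether the outer membrane of mitochondria stays intact. BAX and its relatives open pores in it, through which cytochrome c escapes and activates caspases. Pro-survival proteins such as BCL-2, BCL-XL (from Bcl2l1), MCL-1 and A1 (from the Bcl2a1 copies) hold the pore formers in check. BH3-only proteins respond to stress and either block the pro-survival proteins or activate the pore formers. TNF with a TAK1 inhibitor is known as a stimulus for apoptosis that depends on RIPK1, and adding a Smac mimetic and zVAD to TNF as a stimulus for necroptosis, a form of death that does not need caspases or mitochondrial pores.

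Values are the deposited log2(FPKM + 1), where FPKM corrects fragment counts for exon length and library size, scaled by the authors to a common 75th percentile within a table. Microglial values of replicates 1 to 3 were shifted gene by gene so that their mean over the 6 treatments equalled that of replicate 4. The SDs of microglial levels, and of their sums and ratios, therefore leave out differences between replicates. Microglial levels compared between genes rest in effect on replicate 4. Depth, estimated from the spacing of low values, was 39650000 to 42330000 reads or fragments in astrocytes and 21800000 to 29570000 in microglial replicate 4. For the other microglial replicates depth could not be estimated. A gene was called when limma gave a Benjamini-Hochberg adjusted p under 0.05 over all genes tested and a fold change over 1.5, which is 0.58 on the log2 scale. The share of all tested genes called in the same comparison is given beside the members' counts. Microglial and astrocyte libraries came from different providers and were normalized separately, so cell type and provider cannot be told apart and no level was tested across them. The 13 microglial markers summed to 11300 to 13800 FPKM in every microglial library, and the 9 astrocyte markers to 2920 to 3400 FPKM in every astrocyte library, so both labels fit their defining markers. In these bulk samples, fewer cells of a type and less RNA per cell cannot be told apart.

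At rest, Mcl1 was the most abundant member in microglia, with 183 ± 14.0 FPKM (SD, n = 4) in DMSO. Bax followed with 152 ± 6.99. Because replicates 1 to 3 had been shifted to the means of replicate 4, order and overlap between microglial genes here are in effect those of replicate 4. Bcl2l11, which encodes the BH3-only protein BIM, had 43.0 ± 4.54. Bcl2l1 with 23.3 ± 2.12 and Bmf with 22.4 ± 1.5 overlapped, as did Bbc3 with 15.3 ± 1.38 and Pmaip1 with 13.0 ± 1.95. Bid had 7.56 ± 0.374 and Bcl2a1a 5.24 ± 1.87, again with overlapping libraries. Bcl2, the founding pro-survival gene, was last with 0.995 ± 0.0326 FPKM, so microglia held it near the floor of the filter. Bcl2a1b, a near-identical copy of Bcl2a1a and not among the members, had 331 ± 46.9 FPKM, above Mcl1. Bcl2a1a made 1.41% of the summed copies, so its place in this order does not give the RNA level of A1. In DMSO astrocytes, Mcl1 with 101 ± 1.16 and Bax with 101 ± 11.9 (n = 3) overlapped at the top, and Bcl2l1 had 53.4 ± 4.41. Bcl2 with 8.17 ± 0.257, Bid with 7.66 ± 0.964 and Pmaip1 with 7.24 ± 1.22 overlapped in the middle. Bcl2l11 with 3.51 ± 0.42 and Bbc3 with 3.29 ± 0.107 overlapped below them, ahead of Bmf with 2.62 ± 0.343 and Bcl2a1a with 1.07 ± 0.16. The plot of microglial values by library shows how far these levels moved under treatment.

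**Figure D1:**
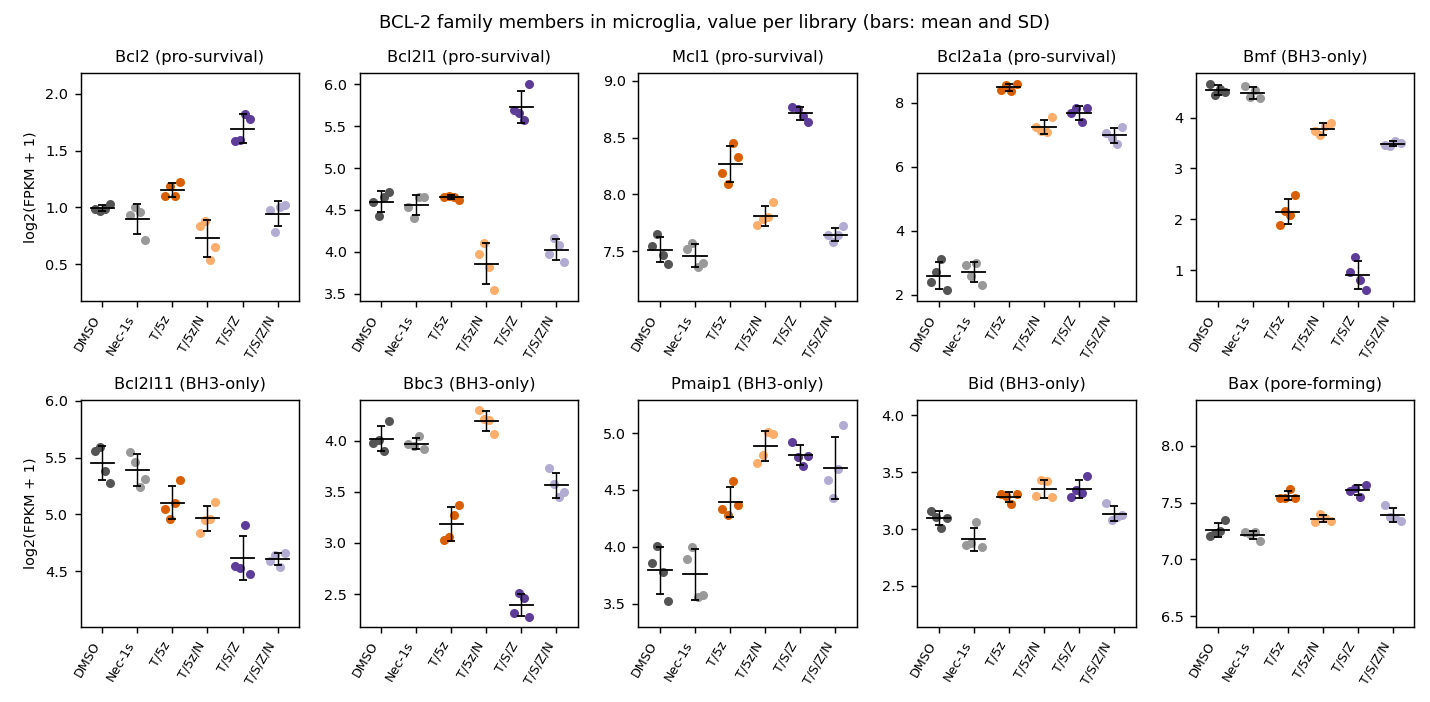
Deposited log2(FPKM + 1) values of the 10 members in the 24 microglial libraries, by treatment. Each point is a library, bars are the mean and SD of 4, and the vertical axes differ between genes. Bcl2a1a lies between 2.14 and 3.13 in DMSO and between 8.37 and 8.59 in T/5z, and Bmf falls from 4.45 to 4.67 in DMSO to 0.60 to 1.26 in T/S/Z.

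Nec-1s alone gave no call in the family in either cell type. In microglia, limma called 0 of the 10 members and 0.0% of all genes, and member changes ran from -0.19 to 0.11 with a lowest adjusted p of 0.543. Without adjustment, 892 genes had p under 0.05, among them 1 member, Bid (-0.19). In astrocytes, limma again called 0 of 10 members and 0.0144% of all genes. Member changes there ran from -0.11 to 0.23 with a lowest adjusted p of 0.857, and 790 genes but 0 members had an unadjusted p under 0.05. Under the study's kind of test, with ordinary variance (each gene's own, not moderated) and unadjusted p, 2 microglial and 9 astrocyte genes passed, and again 0 members.

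T/5z raised 3 of the 10 members in microglia and lowered 2, where 11.1% of all genes were called higher and 13.3% lower. Among pro-survival genes, Bcl2a1a rose 59.0-fold and Mcl1 1.68-fold, and among BH3-only genes Bmf fell 5.27-fold, Bbc3 fell 1.79-fold and Pmaip1 rose 1.51-fold. T/S/Z raised 5 members and lowered 3, against 12.2% of all genes higher and 17.5% lower. Of the T/S/Z calls over all genes 41.1% were higher, a share that centring each library on its median turned to 52.7%. For T/5z the same centring moved the share from 45.5% to 53.6%. The pro-survival genes Bcl2l1, Mcl1 and Bcl2a1a rose with T/S/Z, as did Bcl2, which was kept by the filter through the stimulated groups. In the same comparison 3 of the 5 BH3-only genes fell (Bmf, Bbc3 and Bcl2l11), and Pmaip1 again rose. The 4 pro-survival genes had a median change of 0.45 (T/5z) and 1.16 (T/S/Z). For the 5 BH3-only genes it was -0.35 and -0.84, while the median over all genes was -0.058 and -0.085. Without Bcl2 the pro-survival medians were the values of Mcl1, 0.75 and 1.19. Bid and Bax were not called with either stimulus.

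**Figure D2:**
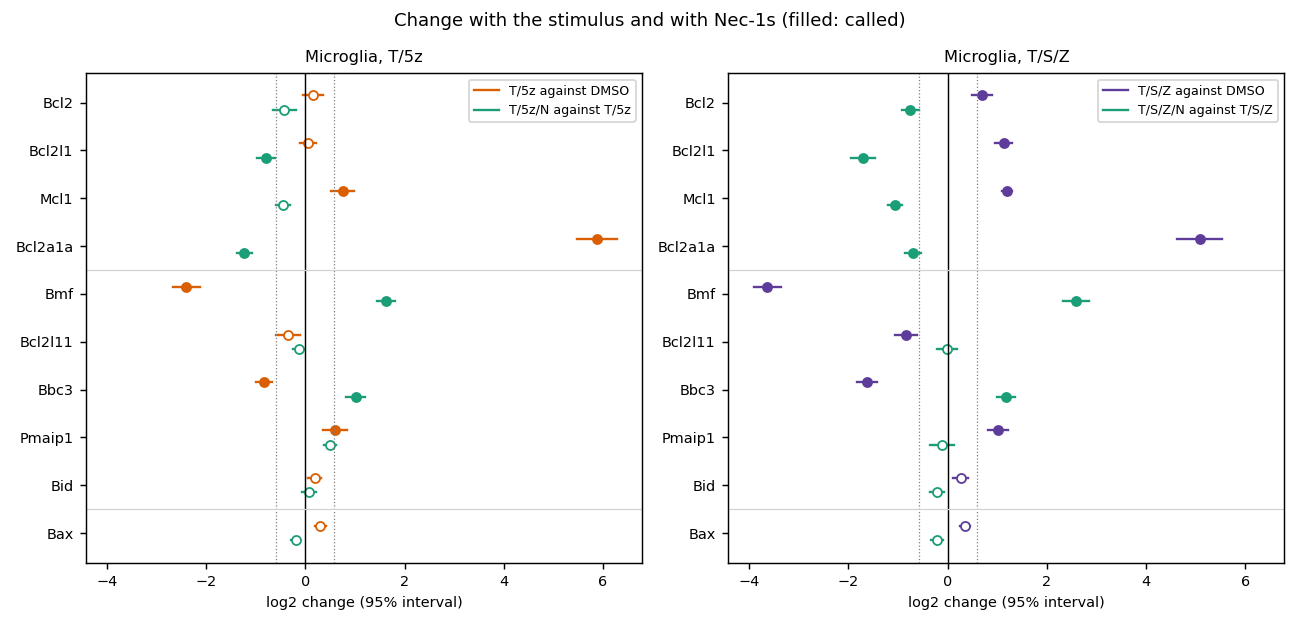
Log2 changes of the 10 members in microglia, with 95% intervals from limma, for each stimulus against DMSO and for the same stimulus with Nec-1s against the stimulus alone. Filled points were called, dotted lines mark a fold of 1.5, and grey lines separate pro-survival, BH3-only and pore-forming genes. With T/S/Z, all 4 pro-survival genes lie above 0 and below 0 with Nec-1s, and Bmf and Bbc3 lie on the opposite sides.

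Bcl2a1a (ENSMUSG00000102037, GRCm38, chr9:88956900-88962419, plus strand) encodes A1, a pro-survival protein known to be switched on by inflammatory signals in myeloid cells. Its log2 values in DMSO microglia were 2.41, 2.70, 3.13 and 2.14. With T/5z they were 8.38, 8.56, 8.37 and 8.59, and with T/S/Z they were 7.66, 7.83, 7.38 and 7.82. Every stimulated library lay above every DMSO library. The change was 5.88 (SE 0.17, adjusted p 6.7e-07) with T/5z and 5.08 (SE 0.19, adjusted p 5.77e-07) with T/S/Z, higher in 4 of 4 pairs each. Adding Nec-1s lowered it, to 7.25, 7.12, 7.07 and 7.56 with T/5z/N and to 7.06, 6.88, 6.71 and 7.25 with T/S/Z/N. These falls were -1.23 (SE 0.066, adjusted p 5.69e-06) and -0.70 (SE 0.069, adjusted p 0.000135). The second was -0.43 and lost its call with quantile normalization. Nec-1s thus took back 20.8% of the T/5z change (16.0% to 24.8% by replicate) and 13.8% of the T/S/Z change (at most 18.6%), both on the log2 scale. On the FPKM scale these shares were 58.0% (51.7% to 64.3%) and 39.5% (33.3% to 50.0%). Against DMSO, Bcl2a1a stayed 25.2-fold higher in T/5z/N and 20.8-fold higher in T/S/Z/N.

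Bcl2a1a is one of several near-identical copies on chromosome 9. Its longest coding transcript shares 98.8% of aligned bases with that of Bcl2a1d and 98.2% with that of Bcl2a1b in GENCODE M21, so reads may have been shared out among the copies and the level of each is uncertain. The other copies moved the same way. Bcl2a1d rose by 4.55 (SE 0.16) with T/5z and 3.70 (SE 0.14) with T/S/Z, and fell by 1.40 (SE 0.070) and 0.99 (SE 0.060) when Nec-1s was added. Bcl2a1b rose by 2.42 (SE 0.11) and 1.68 (SE 0.10), and fell by 1.10 (SE 0.064) and 0.63 (SE 0.067), all 8 changes called. Bcl2a1b was the most abundant copy, with 331 ± 46.9 FPKM in DMSO and 1770 ± 198 in T/5z. Summed over the 3 copies, the level was 367 ± 54 FPKM in DMSO, 2860 ± 300 in T/5z, 1250 ± 150 in T/5z/N, 1670 ± 130 in T/S/Z and 1010 ± 110 in T/S/Z/N (n = 4 each). Bcl2a1a was 1.41% of that sum in DMSO and 12.1% to 12.5% in the 4 stimulated groups. The 250 bases upstream of the starts of Bcl2a1a (chr9:88956670-88956919, plus strand) and Bcl2a1d (chr9:88731851-88732100, minus strand), from RefSeq on GRCm38.p6, are shown because they are nearly identical, as the transcripts are. They agree at 238 of 244 aligned bases (97.5%), and capitals mark the 6 aligned bases that differ. Gaps are not marked. A stretch of 6 bases inside the Bcl2a1a window is missing from that of Bcl2a1d, which starts 6 bases earlier in the alignment.
Bcl2a1a: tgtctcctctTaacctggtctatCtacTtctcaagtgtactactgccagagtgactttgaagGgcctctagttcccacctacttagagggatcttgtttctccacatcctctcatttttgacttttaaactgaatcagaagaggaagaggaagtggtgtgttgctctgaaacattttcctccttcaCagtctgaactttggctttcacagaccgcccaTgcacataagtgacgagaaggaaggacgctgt
Bcl2a1d: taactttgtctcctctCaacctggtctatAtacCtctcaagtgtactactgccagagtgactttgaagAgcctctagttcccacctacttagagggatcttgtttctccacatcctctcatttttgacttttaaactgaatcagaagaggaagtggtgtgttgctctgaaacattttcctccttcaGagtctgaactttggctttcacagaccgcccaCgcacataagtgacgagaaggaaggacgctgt

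Mcl1 (chr3:95658788-95663176, plus strand) encodes a short-lived pro-survival protein. Its values were 7.55, 7.65, 7.47 and 7.39 in DMSO microglia, 8.19, 8.09, 8.45 and 8.33 with T/5z, and 8.77, 8.75, 8.69 and 8.64 with T/S/Z. The DMSO, T/5z and T/S/Z libraries did not overlap. The rise was 0.75 (SE 0.093, adjusted p 0.000405) with T/5z and 1.19 (SE 0.046, adjusted p 5.77e-07) with T/S/Z. With quantile normalization the T/5z rise was 0.52 and no longer passed the fold minimum. Nec-1s brought T/S/Z libraries to between 7.58 and 7.72, a fall of -1.07 (SE 0.058, adjusted p 9.41e-06) that took back 89.6% of the change (73.7% to 107% by replicate). In T/5z/N the libraries lay between 7.73 and 7.93. That change of -0.46 (SE 0.058, adjusted p 0.000431) had the same direction in 4 of 4 pairs but was below the fold minimum. Neither T/5z/N (0.29) nor T/S/Z/N (0.12) was called against DMSO.

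Bcl2l1 (chr2:152780668-152831728, minus strand) separated the stimuli. Its values were 4.59, 4.43, 4.66 and 4.72 in DMSO and 4.66, 4.67, 4.66 and 4.62 with T/5z, which overlapped. Under T/S/Z they were 5.69, 5.66, 5.57 and 6.01, above every other microglial library. The T/S/Z rise was 1.13 (SE 0.072, adjusted p 6.67e-06), whereas the T/5z change of 0.05 (95% interval -0.10 to 0.21) was not called. T/S/Z exceeded T/5z by 1.08 (SE 0.082, adjusted p 9.05e-05). Nec-1s lowered Bcl2l1 after both stimuli, to 3.98, 4.10, 3.82 and 3.54 in T/5z/N, and to 3.98, 4.17, 4.08 and 3.88 in T/S/Z/N. All 8 of these libraries lay below all DMSO libraries. The falls were -0.79 (SE 0.079, adjusted p 0.000122) and -1.71 (SE 0.10, adjusted p 1.45e-05). Against DMSO, T/5z/N was lower by 0.74 (SE 0.12, adjusted p 0.00164) and was called, but not under ordinary variance with adjusted p. T/S/Z/N (-0.57, SE 0.091, adjusted p 0.00163) was just under the fold minimum, and was called without replicate 2 (-0.68) and with quantile normalization (-0.60). For this gene Nec-1s took back 151% of the T/S/Z change (121% to 165%), so the level passed below that of unstimulated cells.

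Bcl2 (chr1:106538178-106714274, minus strand) was low in every microglial library. It had 0.99, 0.97, 0.99 and 1.03 in DMSO, 1.10, 1.19, 1.10 and 1.22 with T/5z, and 1.58, 1.59, 1.82 and 1.78 with T/S/Z, with no overlap between these groups. The T/S/Z rise of 0.70 (SE 0.085, adjusted p 0.000182) was called, also with no filter, and the T/5z change of 0.15 (SE 0.084, adjusted p 0.146) was not. In T/S/Z/N the libraries had 0.98, 0.78, 1.00 and 1.02, a fall of -0.75 (SE 0.077, adjusted p 0.000163). All but the 0.78 of replicate 2 lay in the DMSO range. At this level the 1 added before the log shapes the fold, and when 5 was added instead these changes were 0.27 and -0.29 and lost their calls. In replicate 4, the deposited values correspond to about 200 reads or fragments in DMSO and 472 in T/S/Z. Bcl2 shares 558 exon bases with D630008O14Rik on the opposite strand, and the microglial protocol is not described as strand-specific, so reads of that gene cannot be told apart from Bcl2.

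Among BH3-only genes, Bmf (chr2:118528757-118549687, minus strand) fell furthest. Its protein is known to be held on the cytoskeleton through dynein light chains and released by stress. Its values were 4.67, 4.45, 4.56 and 4.51 in DMSO microglia and 1.88, 2.16, 2.08 and 2.47 with T/5z. T/S/Z libraries had 0.97, 1.26, 0.80 and 0.60, below every T/5z library. The change was -2.40 (SE 0.11, adjusted p 4.51e-06) with T/5z and -3.64 (SE 0.12, adjusted p 2.67e-07) with T/S/Z. In replicate 4 this was a drop from about 2210 reads or fragments in DMSO to 513 in T/5z and 52.0 in T/S/Z. Nec-1s restored part of it, to 3.73, 3.65, 3.83 and 3.90 in T/5z/N and 3.47, 3.44, 3.54 and 3.50 in T/S/Z/N. On the log2 scale it took back 67.9% of the change after T/5z (64.9% to 70.5%) and 70.9% after T/S/Z (67.7% to 74.1%), the narrowest ranges between replicates among the members called against DMSO in microglia. On the FPKM scale the shares were 48.9% (44.3% to 54.4%) and 43.4% (39.0% to 46.0%). Bmf still lay below DMSO by 0.77 (SE 0.065, adjusted p 4.16e-05) in T/5z/N and by 1.06 (SE 0.060, adjusted p 9.73e-06) in T/S/Z/N.

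Bbc3 (chr7:16309616-16318205, plus strand), which encodes PUMA, a target of p53, moved in the same directions as Bmf. It had 3.98, 4.01, 3.90 and 4.19 in DMSO, 3.03, 3.06, 3.27 and 3.37 with T/5z and 2.32, 2.51, 2.46 and 2.28 with T/S/Z, in 3 separate ranges. The change was -0.84 (SE 0.068, adjusted p 5.08e-05) with T/5z and -1.63 (SE 0.087, adjusted p 2.65e-06) with T/S/Z. With Nec-1s it rose by 1.01 (SE 0.088, adjusted p 6.16e-05) after T/5z and by 1.17 (SE 0.076, adjusted p 2.15e-05) after T/S/Z. The T/5z/N libraries, from 4.06 to 4.30, overlapped those of DMSO, while the T/S/Z/N libraries, from 3.45 to 3.73, lay below them. T/S/Z/N was lower than T/5z/N by 0.62 (SE 0.049, adjusted p 5.3e-05), the one member of 10 called between these groups, where 3.38% of all genes were called. That call was lost when 5 was added before the log (-0.49) and without replicate 3 (-0.58).

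Bcl2l11 (chr2:128126038-128162547, plus strand) fell with T/S/Z, and Nec-1s did not return it. Its values were 5.56, 5.59, 5.38 and 5.28 in DMSO, 4.55, 4.53, 4.91 and 4.48 with T/S/Z, and 4.59, 4.64, 4.54 and 4.66 with T/S/Z/N. The fall was -0.84 (SE 0.098, adjusted p 0.000151) without Nec-1s and -0.85 (SE 0.072, adjusted p 6.74e-05) with it. Between T/S/Z/N and T/S/Z the difference was -0.01, with a 95% interval of -0.21 to 0.19. With T/5z the change of -0.35 (SE 0.10, adjusted p 0.0213) was below the fold minimum and the groups overlapped. In T/5z/N it was -0.49, and it passed the minimum without replicate 4 (-0.59).

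Pmaip1 (chr18:66458604-66465550, plus strand), which encodes NOXA, rose where other BH3-only genes fell. It had 3.86, 4.01, 3.78 and 3.52 in DMSO, 4.33, 4.28, 4.58 and 4.37 with T/5z and 4.92, 4.79, 4.71 and 4.8 with T/S/Z, without overlap. The T/5z rise of 0.60 (SE 0.10, adjusted p 0.00181) was close to the fold minimum and was not called without replicate 3 (0.53) or replicate 4 (0.51), or when 5 was added before the log (0.48). The T/S/Z rise was 1.01 (SE 0.085, adjusted p 2.6e-05). Nec-1s did not lower it. T/5z/N libraries lay higher still, at 4.74, 4.81, 5.01 and 4.99, a difference from T/5z of 0.50 (SE 0.050, adjusted p 0.00013) in 4 of 4 pairs that was below the fold minimum. After T/S/Z, adding Nec-1s moved Pmaip1 by -0.11 (95% interval -0.35 to 0.12). Against DMSO it was higher by 1.09 (SE 0.11, adjusted p 9.47e-05) in T/5z/N and by 0.90 (SE 0.16, adjusted p 0.00275) in T/S/Z/N, the latter not called under ordinary variance with adjusted p.

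Bid and Bax were not called in any of the 10 microglial comparisons. Bid (chr6:120892854-120916853, minus strand), the BH3-only gene whose protein caspase-8 cleaves, stayed between 2.84 and 3.47 in all 24 libraries. Its changes were 0.19 (SE 0.052, adjusted p 0.0167) with T/5z and 0.26 (SE 0.067, adjusted p 0.01) with T/S/Z. Bid shares 628 exon bases with Bcl2l13 on the opposite strand. The microglial protocol is not described as strand-specific, so reads of Bcl2l13 there cannot be told apart from Bid. Bax (chr7:45461697-45466898, minus strand) stayed between 7.16 and 7.65. It changed by 0.30 (SE 0.047, adjusted p 0.00126) with T/5z and 0.35 (SE 0.046, adjusted p 0.000277) with T/S/Z, in 4 of 4 pairs each. With quantile normalization the Bax change with T/S/Z was -0.08, so its direction depended on the scaling. Of its 867 exon bases in the microglial annotation, 192 are shared with Gm45808 on the same strand, so reads there cannot be told apart.

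Promoter windows of 3 BH3-only genes are shown because these genes fell together with T/S/Z. The windows hold 250 bases before a RefSeq start on GRCm38.p6. RefSeq gave 3 windows for Bmf, 3 for Bbc3 and 2 for Bcl2l11. For Bbc3 and Bcl2l11 the one window with FOXO letters was picked after the search, and for Bmf the first. They belong to Bmf (chr2:118549687-118549936, minus strand), Bbc3 (chr7:16310011-16310260, plus strand) and Bcl2l11 (chr2:128125788-128126037, plus strand). Capitals mark the letters TGTTTAC of FOXO factors, searched on both strands.
Bmf: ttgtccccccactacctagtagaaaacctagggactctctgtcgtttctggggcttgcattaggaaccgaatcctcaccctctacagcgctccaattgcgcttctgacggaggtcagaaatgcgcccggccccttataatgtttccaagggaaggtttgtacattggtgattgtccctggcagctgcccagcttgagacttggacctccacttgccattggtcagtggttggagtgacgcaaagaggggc
Bbc3: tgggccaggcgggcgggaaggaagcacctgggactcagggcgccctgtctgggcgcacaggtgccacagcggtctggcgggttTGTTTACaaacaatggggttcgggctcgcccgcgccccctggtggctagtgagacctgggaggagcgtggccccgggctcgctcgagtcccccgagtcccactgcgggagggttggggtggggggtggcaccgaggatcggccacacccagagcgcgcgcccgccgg
Bcl2l11: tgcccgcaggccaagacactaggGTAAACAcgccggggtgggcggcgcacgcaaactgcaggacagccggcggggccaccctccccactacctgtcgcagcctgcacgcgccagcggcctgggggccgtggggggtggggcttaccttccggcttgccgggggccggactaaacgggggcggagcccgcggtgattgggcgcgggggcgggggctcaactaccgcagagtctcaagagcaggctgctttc
The FOXO letters began 167 bases before the start in the Bbc3 window and 227 before it in the Bcl2l11 window, and were not in the Bmf window. They were in 2 of the 16 windows of 9 members and in 3.17% of all 32851 promoter windows of this length. The NF-kB core GGANNTTCC was in 0 of the 16 windows and 3.59% of all, and the E-box CACGTG in 2 (Bax and another Bbc3 window) and 6.02% of all. The motifs do not overlap in these windows. Matches of letters describe the windows and do not show binding.

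By count, Nec-1s reversed more members in the T/S/Z setting, and the difference in its effect was tested for each gene. Against T/5z alone, T/5z/N called 2 members higher (2.64% of all genes) and 2 lower (4.52%). Against T/S/Z alone, T/S/Z/N called 2 higher (5.35%) and 4 lower (6.72%). The 3 genes Bcl2a1a, Bmf and Bbc3 were called with T/5z and in the opposite direction with Nec-1s, as were 6.08% of all genes. In the T/S/Z setting these were 6 (Bcl2, Bcl2l1, Mcl1, Bcl2a1a, Bmf and Bbc3), against 9.28% of all genes. Of the 6, Bcl2a1a lost its Nec-1s call with quantile normalization and Bcl2 both calls when 5 was added before the log. The contrasts share the libraries of the stimulus alone, so such a count holds some reversal by construction. In the interaction over the 4 groups, 4 of 10 members were called, against 6.47% of all genes. The effect of Nec-1s was larger after T/S/Z for Bcl2l1 (-1.71 against -0.79, difference 0.91, SE 0.15, adjusted p 0.000704) and for Mcl1 (-1.07 against -0.46, difference 0.61, SE 0.091, adjusted p 0.000278). On the log2(FPKM + 1) scale it was also larger for Bmf (2.58 against 1.63, difference -0.96, SE 0.19, adjusted p 0.00206), but this rested on the number added, since it was -0.30 and not called when 5 was added. For Pmaip1 it was 0.50 in the T/5z setting and -0.11 in the T/S/Z setting (difference 0.61, SE 0.14, adjusted p 0.00525). Without replicate 2, the Mcl1 (0.53) and Pmaip1 (0.51) differences lost their calls, and Pmaip1 also lost it without replicate 1 (0.57) and when 5 was added (0.52). Quantile normalization took the calls of Mcl1 (0.40) and Pmaip1 (0.58) and gave one to Bcl2a1a (-0.71). Of the 4, only Bcl2l1 was called under each of these settings.

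In the direct comparison of stimuli, T/S/Z exceeded T/5z for Bcl2l1 and lay below it for Bcl2a1a (-0.80, SE 0.059, adjusted p 8.11e-05), Bmf (-1.25, SE 0.16, adjusted p 0.00112) and Bbc3 (-0.79, SE 0.093, adjusted p 0.000679). With 5 instead of 1 added before the log, the Bmf difference was -0.52 and the Bbc3 difference -0.50, and neither was called. The Bmf difference was also not called under ordinary variance with adjusted p. These 4 of 10 compare with 9.83% of all genes. The Bcl2 difference of 0.54 was called without replicate 2 (0.59) and with quantile normalization (0.68). After Nec-1s, against DMSO, T/5z/N left 2 members higher (6.16% of all genes) and 2 lower (6.69%), and T/S/Z/N left 2 higher (6.2%) and 2 lower (7.87%). Bcl2a1a and Pmaip1 were the higher members in both. Bmf was lower in both, with Bcl2l1 in T/5z/N and Bcl2l11 in T/S/Z/N.

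Summed FPKM by role gives the same data on 1 scale. In DMSO microglia the 4 pro-survival genes summed to 212 ± 12 FPKM and the 5 BH3-only genes to 101 ± 6.2, a ratio of 2.10 ± 0.068 (n = 4). The ratio was 2.12 ± 0.072 in Nec-1s, 9.35 ± 0.37 in T/5z and 10.4 ± 0.90 in T/S/Z, where the pro-survival sum had risen to 689 ± 36 and 679 ± 36. T/5z/N came down to 3.97 ± 0.28 and T/S/Z/N to 4.41 ± 0.11, still above every DMSO library. The shares of single genes in these sums differed between the stimuli. Bcl2a1a made 51.7% ± 3.7 of the pro-survival sum in T/5z and 30.1% ± 2.9 in T/S/Z, where Mcl1 made 61.8% ± 3.4. On the BH3-only side, Bmf shrank from 22.2% ± 1.7 in DMSO to 1.38% ± 0.59 in T/S/Z, while Pmaip1 grew from 12.8% ± 1.4 to 41.5% ± 3.4. The pro-survival sum counts Bcl2a1a alone of the copies, and a sum of RNA levels says nothing of protein. Together the 3 Bcl2a1 copies had 367 FPKM in DMSO, 2860 in T/5z and 1670 in T/S/Z. Each value exceeds the whole pro-survival sum of its group. The ratios, the shares and the order of the 2 stimuli therefore hold for the listed genes alone.

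**Figure D3:**
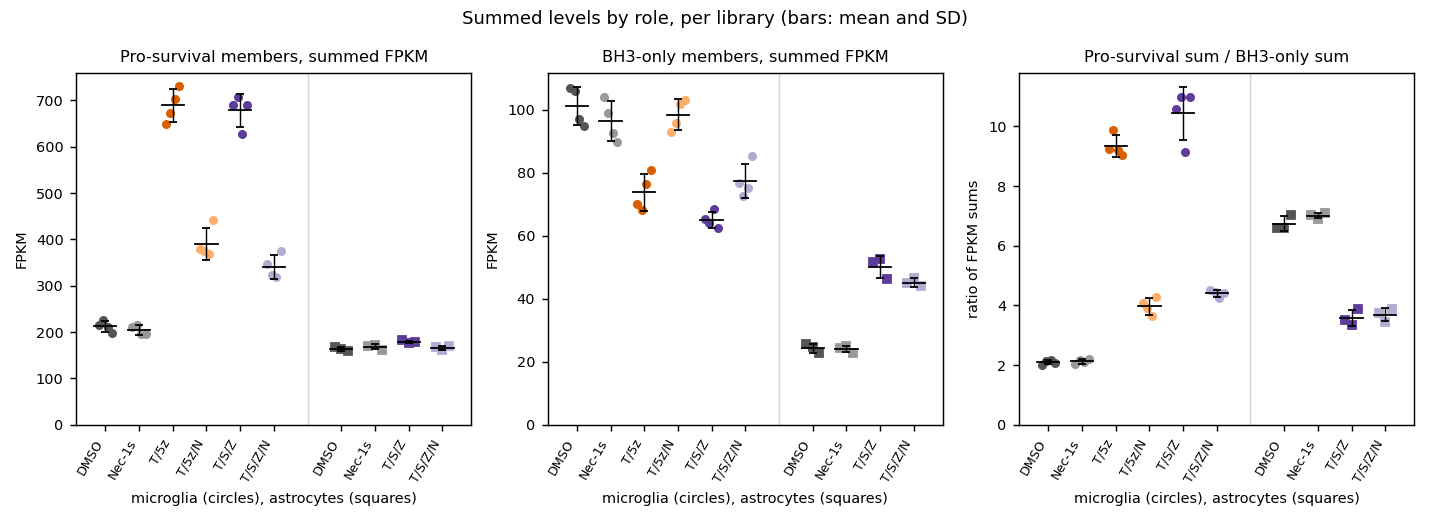
Summed FPKM of the 4 pro-survival genes (left) and of the 5 BH3-only genes (middle), and their ratio (right), in each library. Bars are the mean and SD of 4 microglial (circles) or 3 astrocyte (squares) libraries. Of the Bcl2a1 copies only Bcl2a1a is in the sums. In microglia the ratio lies between 2.01 and 2.16 in DMSO and between 9.03 and 11.0 after either stimulus, while in astrocytes it falls from between 6.59 and 7.04 to between 3.36 and 3.88 with T/S/Z.

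Of the 10 members, 4 changed in astrocytes given T/S/Z. There 2 members rose (Bid and Bcl2a1a, where 6.39% of all genes rose) and 2 fell (Bcl2 and Bmf, where 8.99% fell), with a median change over all genes of -0.108. These calls depended on the test, since 0 members were called with ordinary variance and adjusted p, 2 when 5 was the number added to FPKM, and 1 when genes needed a mean log2 of at least 3. Over all genes, quantile normalization turned the balance, so that more calls were higher than lower. Bid, not called in microglia, had the largest change. Its values were 3.29, 3.00 and 3.04 in DMSO, 5.22, 5.24 and 5.11 with T/S/Z and 4.73, 4.77 and 4.75 with T/S/Z/N. The rise was 2.08 (SE 0.089, adjusted p 6.85e-06), which is 4.23-fold, and it stayed 3.12-fold above DMSO with Nec-1s. Nec-1s changed it by -0.44 (SE 0.083, adjusted p 0.0269), below the fold minimum, and took back 21.1% of the rise on the log2 scale (17.2% to 25.7%) and 34.5% in FPKM (28.7% to 39.5%). Bid shares 628 exon bases with Bcl2l13 on the opposite strand. Bcl2l13, a BCL-2 relative of the mitochondrial membrane, changed by 0.19 (SE 0.15, adjusted p 0.355) with T/S/Z.

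Bcl2 fell with T/S/Z in astrocytes and rose with it in microglia, a difference that was not tested across the separately normalized tables. Its values were 3.24, 3.20 and 3.15 in DMSO, 2.31, 2.05 and 2.24 with T/S/Z and 2.70, 2.49 and 2.61 with T/S/Z/N, in 3 separate ranges. The fall was -0.99 (SE 0.10, adjusted p 0.000377). Nec-1s moved it by 0.40 (SE 0.094, adjusted p 0.0476), below the fold minimum. T/S/Z/N stayed below DMSO by 0.60 (SE 0.086, adjusted p 0.00505), close to that minimum. That difference was called, but not without replicate 2 (-0.54), with median centring or with quantile normalization. Bmf fell in astrocytes as well, from 1.91, 1.69 and 1.96 to 1.16, 1.04 and 1.10, a change of -0.75 (SE 0.11, adjusted p 0.0017). It had 1.35, 1.66 and 1.23 with Nec-1s, and that difference of 0.31 (SE 0.12, adjusted p 0.143) was not called. Bcl2a1a rose by 0.66 (SE 0.16, adjusted p 0.0152) from 1.16, 0.93 and 1.06 to 1.39, 1.68 and 2.08. It was not called without replicate 2 (0.63) or replicate 3 (0.49).

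The remaining 6 members were not called with T/S/Z in astrocytes. Mcl1 changed by 0.04 (95% interval -0.13 to 0.21), an interval that does not reach the microglial change of 1.19. Bcl2l1 rose by less than the fold minimum, by 0.36 (SE 0.072, adjusted p 0.00758). Bbc3 had 2.59, 2.63 and 1.70, a wider spread than the 2.08, 2.08 and 2.14 of DMSO, and Bcl2l11 (0.07), Bax (0.18) and Pmaip1 (-0.30, adjusted p 0.0651) overlapped DMSO. With Nec-1s added, Pmaip1 was the one member called against T/S/Z, higher by 0.74 (SE 0.097, adjusted p 0.00699), where 1.51% of all genes were called higher and 1.59% lower. This call was lost under ordinary variance with adjusted p and when 5 was added (0.51). Its libraries were 2.62, 2.84 and 2.72 with T/S/Z and 3.50, 3.52 and 3.39 with T/S/Z/N. Called both ways was no member, against 2.54% of all genes. Against DMSO, T/S/Z/N called Bid and Bcl2a1a higher (4.36% of all genes) and Bcl2 lower (4.72%), of which 0 were called under ordinary variance with adjusted p and Bid alone when 5 was added. Bmf there was -0.44 (SE 0.15, adjusted p 0.0714) and not called, but was called without replicate 2 (-0.64). The pro-survival to BH3-only ratio went from 6.74 ± 0.26 in DMSO to 3.58 ± 0.27 in T/S/Z and 3.69 ± 0.22 in T/S/Z/N (n = 3), and Bid made 70.8% ± 1.5 of the BH3-only sum in T/S/Z after 31.5% ± 3.1 in DMSO.

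**Figure D4:**
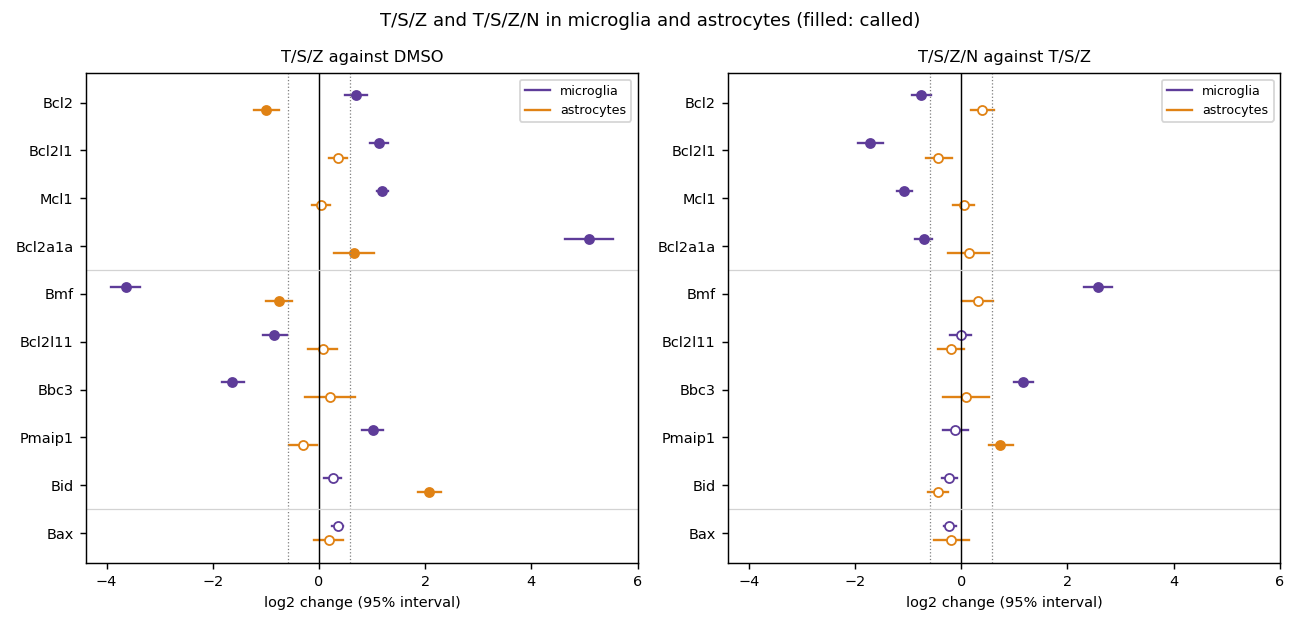
Log2 changes of the 10 members with T/S/Z against DMSO (left) and with T/S/Z/N against T/S/Z (right) in microglia and astrocytes, with 95% intervals from limma. Filled points were called and dotted lines mark a fold of 1.5. Bcl2 lies at 0.70 in microglia and -0.99 in astrocytes, and Bid at 0.26 and 2.08.

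**Figure D5:**
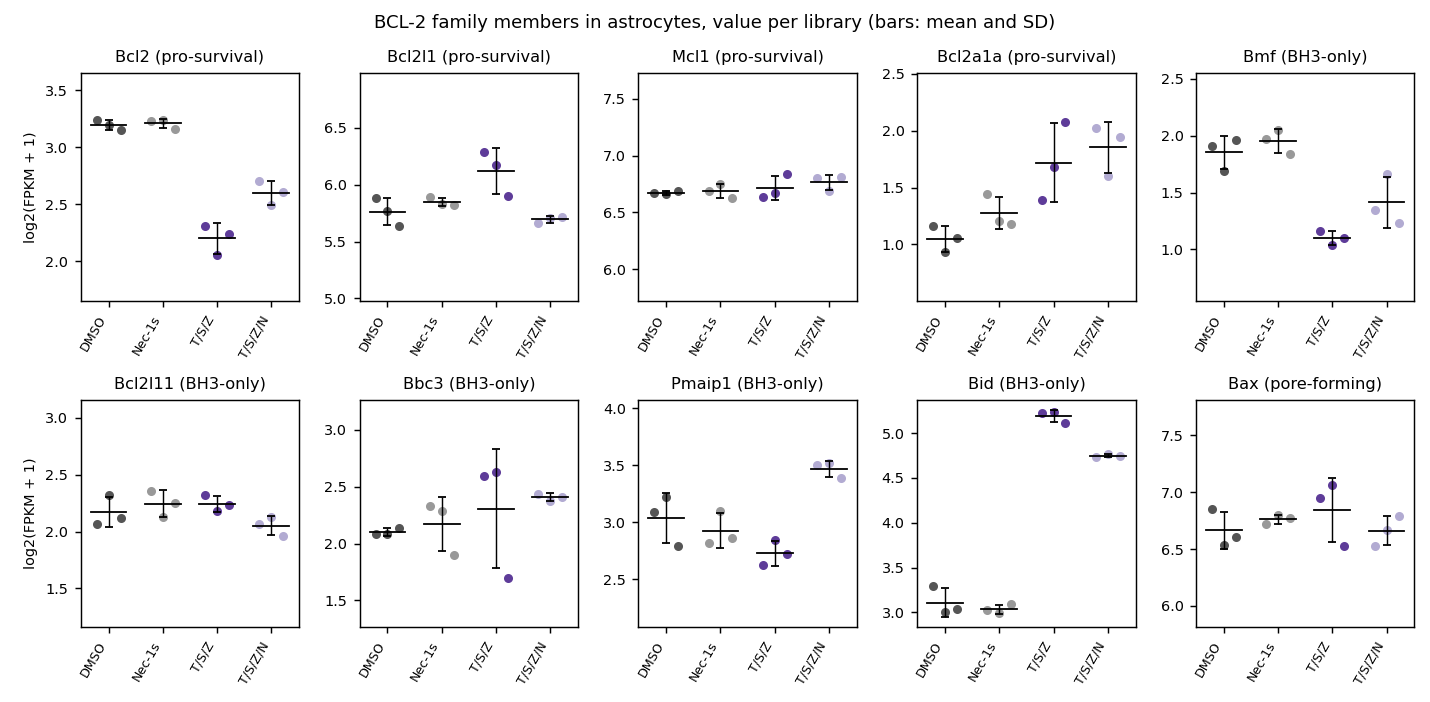
Deposited log2(FPKM + 1) values of the 10 members in the 12 astrocyte libraries, by treatment. Each point is a library, bars are the mean and SD of 3, and the vertical axes differ between genes. Bid rises from between 3.00 and 3.29 in DMSO to between 5.11 and 5.24 with T/S/Z and lies between 4.73 and 4.77 with T/S/Z/N.

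Markers of other cells moved in the astrocyte libraries beside these changes. All 5 fibroblast markers fell with T/S/Z, with sums of 604 to 618 FPKM in DMSO, 110 to 122 in T/S/Z and 485 to 488 in T/S/Z/N. The 13 microglial markers summed to 116 to 124 FPKM in DMSO, 71.4 to 75.1 in T/S/Z and 102 to 111 in T/S/Z/N, and 7 of the 12 tested fell with T/S/Z. Oligodendrocyte lineage markers summed to 100.0 to 117 FPKM in DMSO and 60.3 to 86.9 in T/S/Z, where 2 of 7 tested fell and the median change was 0.02. Endothelial markers summed to 13.6 to 14.7 and 5.79 to 6.43, and of the 2 tested 1 rose and 1 fell. The part of these cells in the astrocyte results was not tested. Levels of the Bcl2a1 copies in astrocytes are given as a share of those in microglia, as a description only. The 2 tables were normalized separately, with 75th percentiles of 4.73 to 4.74 on the log2(FPKM + 1) scale in astrocytes and 4.11 to 4.16 in microglia, and every such share, those of the markers included, carries this offset. Bcl2a1a in DMSO astrocytes was 20.5% of its microglial level, Bcl2a1d 2.17% and Bcl2a1b 1.17%, where the 13 microglial markers had a median of 0.792% (0.349% to 43.0%). In T/S/Z these were 1.14%, 1.01% and 0.688%, beside a marker median of 0.449% (0.177% to 18.7%). In the microglial libraries, 4 of the 6 astrocyte markers tested rose with each stimulus and fell with Nec-1s. Their sum over all 9 went from 7.17 to 9.14 FPKM in DMSO to 12.1 to 22.2 in T/5z and 13.7 to 19.9 in T/S/Z. Of the 4 fibroblast markers tested in microglia, all rose with T/5z and none was called with T/S/Z, with sums of 6.17 to 8.72 FPKM in DMSO and 11.2 to 20.2 in T/5z. Of 3 oligodendrocyte lineage markers tested there, 1 rose and 1 fell with T/5z and 2 rose with T/S/Z (median change 0.70). Adding Nec-1s to T/S/Z lowered 2 and raised 1 (median -1.03). Their sums over the list overlapped between DMSO (30.6 to 32.6 FPKM) and T/S/Z (27.5 to 37.7). Of 2 endothelial markers tested, 1 fell with each stimulus, and sums went from 5.82 to 6.81 FPKM in DMSO to 3.45 to 4.83 in T/5z and 2.70 to 3.34 in T/S/Z. The part of other cells in the microglial results was not tested.

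Other BCL-2 family genes were measured from a list of 17, of which 12 were tested in each table. Counts of this and the following lists stand against the shares of all genes called, which for T/5z were 11.1% higher and 13.3% lower, for T/S/Z 12.2% and 17.5%, and in astrocytes 6.39% and 8.99%. With T/5z, 3 rose and 1 fell in microglia, and with T/S/Z 4 rose and 2 fell. Besides the Bcl2a1 copies, Bcl2l2, which encodes the pro-survival protein BCL-W, rose by 0.69 (SE 0.053) and 1.01 (SE 0.090). Bnip3, an atypical BH3-only gene known for its part in mitophagy, rose by 0.83 (SE 0.13) with T/S/Z and changed by -0.02 with T/5z. Its relative Bnip3l fell by 0.63 and 0.67, and Bcl2l12 fell by 0.60 with T/S/Z. Nec-1s lowered Bcl2l2 (-0.64) and Bnip3 (-0.78) after T/S/Z. In astrocytes only Bcl2a1b (0.77) and Bcl2a1d (1.62) were called of the 12, both higher. Bak1, the other main pore former, changed by 0.18 and 0.16 in microglia and by 0.49 in astrocytes and was not called. The median of the list was 0.20 with T/5z, 0.25 with T/S/Z and 0.08 in astrocytes.

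Downstream of the pore, 13 genes of the mitochondrial apoptosis machinery were tested. In microglia 3 fell and 1 rose with T/5z, and 3 fell and 2 rose with T/S/Z. Casp2, which encodes an initiator caspase, changed by -1.42 and -1.83, Casp6 by -0.93 and -0.93, and Casp9, the caspase activated by released cytochrome c, by -0.84 and -1.04. Cycs, which encodes cytochrome c, rose by 0.63 and 0.84, and Vdac2, a channel gene of the outer membrane, by 0.64 with T/S/Z. Nec-1s raised Casp2 (1.13), Casp6 (0.62) and Casp9 (0.61) after T/S/Z and Casp2 (0.65) after T/5z. In astrocytes T/S/Z gave 0 calls by limma among the 13. At an unadjusted p under 0.05 there were 4, Casp6 (-0.57) among them, where 49.7% of all genes passed. In microglia the 13 genes had medians of -0.05 (T/5z) and 0.01 (T/S/Z), and in astrocytes of -0.06. Of 8 genes for partners and turnover of BCL-2 proteins, such as the dynein light chains Dynll1 and Dynll2 and the MCL-1 ligase gene Huwe1, 0 were called by limma in any of these comparisons. With T/S/Z in microglia their changes, from -0.44 to 0.55, were below the fold minimum, and all 8 had an unadjusted p under 0.05, as did 73.6% of all genes.

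Genes of transcription factors named for BH3-only genes moved in both directions. Of 9 tested in microglia, 4 fell with T/5z, and 3 rose and 3 fell with T/S/Z. Foxo3, whose protein is known to activate Bcl2l11 and Bbc3, fell by 1.18 (SE 0.073) and 1.22 (SE 0.075). Myc rose by 2.01, Jun by 1.85 and Atf4 by 1.01 with T/S/Z, and these changed by 0.43, -0.13 and 0.00 with T/5z. In astrocytes, 4 of 10 rose with T/S/Z (Atf4, Jun, Myc and Trp53, the last by 1.26) and E2f1 fell by 0.67. Among 15 genes known as p53 targets, 13 were tested in microglia, of which 4 rose and 1 fell with T/5z and 5 rose and 3 fell with T/S/Z. In T/S/Z, Plk2 rose by 4.15 and Fas by 2.18, and Sesn1 fell by 2.71 and Trp53inp1 by 2.09. With T/5z, Fas rose by 2.87, Cdkn1a by 2.40 and Plk2 by 1.13, and Trp53inp1 fell by 1.13.

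The genes with the most similar pattern to each member were ranked by Pearson's r over all libraries of a table, 24 in microglia. These libraries share treatments and, within a number, the replicate, so r describes the pattern and carries no p. Bcl2a1a was nearest to Clec4e (0.998), Sod2 (0.996) and Icam1 (0.996). Bmf was nearest to Pik3c3 (0.988), B4galnt1 (0.987) and Ulk1 (0.987), and Bbc3 to Maz (0.98), Cdk14 (0.977) and Josd1 (0.97). Mcl1 was nearest to Actg1 (0.973), Fbxw11 (0.971) and Sf3b1 (0.964), and Bcl2l1 to Selenok (0.97), Tiparp (0.959) and Cap1 (0.949). Bcl2 was nearest to Ptgs2 (0.954), Ewsr1 (0.951) and Plk3 (0.951), and Bcl2l11 to Kdr (0.939), Pacs1 (0.929) and Nav1 (0.918). Pmaip1 was nearest to Slc7a1 (0.934), Ppfibp2 (0.906) and Chka (0.904). Bid was nearest to Optn (0.876), Rab22a (0.87) and Gm43814 (0.864), and Bax to Adrm1 (0.97), Psmc4 (0.97) and Gnb2 (0.963). Over the 12 astrocyte libraries, Bid was nearest to Rnd1 (0.999), Ccl5 (0.998) and H2-Q4 (0.997), and Bcl2 to Meis2 (0.99), Sox21 (0.989) and Hip1 (0.988). Bmf was nearest to Mapre2 (0.982), Nr2e1 (0.976) and Nt5e (0.975) there, and Bcl2a1a to Crem (0.939), Ap1s3 (0.937) and Samsn1 (0.935). For the other 6 members in astrocytes the highest r ran from 0.877 for Bbc3 to 0.976 for Bcl2l1.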

How the data were processed

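RNA-seq was made of cultured mouse microglia and astrocytes, from mRNA of cells treated for 4 h. The authors deposited 1 table per cell type of log2(FPKM + 1) values, scaled to a common 75th percentile, made with OmicSoft Array Studio. Microglial libraries came from Genewiz and astrocyte libraries, strand-specific, from BGI. In the microglial table, gene means over treatments differed between replicates by at most 6.67e-05 (5.16 in astrocytes), and values below 0 occurred in replicates 1 to 3 alone, so these replicates had been shifted to the means of replicate 4. The adjustment is not described in the sources used here. Differences within a replicate do not change if the shift was additive, and what else it did was not tested.

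Samples were grouped by the labels. Genes with a log2 value of at least 1 in 4 microglial or 3 astrocyte libraries were kept, 10524 and 13842 genes, and tested with limma 3.58.1 in R 4.3.3, with empirical Bayes moderation, an intensity trend and the replicate number as a block, on the groups compared. P-values were adjusted by Benjamini-Hochberg over all genes tested. A call needed an adjusted p under 0.05 and a fold over 1.5 of FPKM plus 1, so the change of low genes comes out too small. The study used a paired test, hence the block. FPKM levels are 2 to the power of the deposited value, minus 1. Depth was estimated from steps between low values, of which 67.1% to 78.9% lay within 0.15 of a whole read or fragment, so whole reads were not recovered and no count test was run. The code was tested on simulated data. Promoter windows came from RefSeq on GRCm38.p6 and were matched by symbol for 9 members. Named genes were the 10 members, every other BCL-2 family gene called, up to 4 called genes of largest change from each further list, and the 3 genes of highest r per member. Bak1, Bcl2l13, Dynll1, Dynll2, Huwe1, Vdac2, Trp53 and E2f1 were named outside this rule after their values were seen. The members and lists were chosen with earlier results of these data known. Alternatives covered the block, filter, added number, fold minimum, scaling, variance estimate, samples in the fit and each replicate left out. Some genes of the apoptosis machinery are not reported here.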

Additional observations from a re-analysis of the deposited data

Results flagged for a closer look

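In 60 groups of 4 microglial libraries, 1 per member and treatment, 2 had a library far from the others, where chance gives about 1 in 20. Bcl2l11 in T/S/Z had a highest library of 4.91, with the others from 4.48 to 4.55. Bax in T/5z had a highest library of 7.62, with the nearest at 7.54. The effect of Nec-1s after T/5z minus that after T/S/Z, tested as an interaction with limma, differed for 4 members. These were Bcl2l1 (0.91, adjusted p 0.000704), Mcl1 (0.61, adjusted p 0.000278), Bmf (-0.96, adjusted p 0.00206) and Pmaip1 (0.61, adjusted p 0.00525), each in the same direction in 4 of 4 pairs. When 5 was added before the log, Bmf (-0.30) and Pmaip1 (0.52) lost their calls, and with quantile normalization Mcl1 (0.40) and Pmaip1 (0.58) did. Without replicate 2, 2 of the 4 were called.

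In 5 cases every pair of microglia moved one way and every pair of astrocytes the other, and the difference was not tested because the tables were normalized separately. How many of all genes meet this rule was not counted, so the 5 cases have no background to be set against. With Nec-1s alone, Bcl2l1 changed by -0.04 in microglia and 0.08 in astrocytes, neither called. With T/S/Z against DMSO, Bcl2 changed by 0.70 in microglia and -0.99 in astrocytes, and Pmaip1 by 1.01 and -0.30. With T/S/Z/N against T/S/Z, Bcl2 changed by -0.75 and 0.40. With T/S/Z/N against DMSO, Bbc3 changed by -0.45 and 0.31. The astrocyte changes of Pmaip1 and Bbc3 and the astrocyte Nec-1s change of Bcl2 were not called, nor was the microglial change of Bbc3.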

How the results depend on the processing

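For single members, 1793 values under alternatives kept their direction and side of the threshold, 65 lost the call, 7 gained it and 25 changed sign. None of the 25 was called. With quantile normalization, Bax became -0.08 (T/S/Z against DMSO), 0.05 (T/S/Z/N against T/S/Z), -0.05 (T/5z/N against DMSO), -0.03 (T/S/Z/N against DMSO), -0.12 (T/S/Z against T/5z) and -0.13 (interaction), and Bcl2 0.08 and Mcl1 -0.03 (T/S/Z/N against DMSO). With a replicate left out, values crossed 0 in microglia for Nec-1s alone (Bcl2a1a -0.02 to 0.19, Pmaip1 -0.07 to 0.03, Bbc3 -0.11 to 0.03), T/5z (Bcl2l1 -0.01 to 0.10), T/S/Z/N against T/S/Z (Bcl2l11 -0.08 to 0.11) and the interaction (Bax -0.02 to 0.05). In astrocytes they did so for Nec-1s alone (Bcl2l11 -0.03 to 0.21, Bbc3 -0.01 to 0.23, Bid -0.13 to 0.02, Mcl1 -0.02 to 0.05, Bmf -0.03 to 0.21), T/S/Z (Bcl2l11 -0.01 to 0.18, Mcl1 -0.01 to 0.08), T/S/Z/N against T/S/Z (Bcl2a1a -0.11 to 0.28, Bbc3 -0.21 to 0.28) and T/S/Z/N against DMSO (Bcl2l1 -0.14 to 0.01). The cause was not tested. The quantile setting also lost 5 calls, those of Mcl1 (0.40) and Pmaip1 (0.58) in the interaction, where Bcl2a1a (-0.71) gained one, Mcl1 with T/5z (0.52), Bcl2a1a in T/S/Z/N against T/S/Z (-0.43) and Bcl2 in astrocyte T/S/Z/N against DMSO (-0.52), the last also lost by median centring (-0.54).

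Members called fell with a fold minimum of 2, which by construction leaves fewer: to 6 with T/S/Z, 4 for T/S/Z/N against T/S/Z, 3 for T/5z/N against T/5z, to 2 with T/5z, T/5z/N against DMSO, T/S/Z/N against DMSO and T/S/Z against T/5z, to 1 in astrocytes with T/S/Z and T/S/Z/N against DMSO, and to 0 for T/S/Z/N against T/5z/N, interaction and astrocyte T/S/Z/N against T/S/Z. Adding 5 before the log, they were 2 for T/S/Z against T/5z, the interaction and T/S/Z in astrocytes, 1 for astrocyte T/S/Z/N against DMSO, and 0 for T/S/Z/N against T/5z/N and astrocyte T/S/Z/N against T/S/Z. With a mean log2 of at least 3 they were 1 for astrocyte T/S/Z and 1 for T/S/Z/N against DMSO, since low members left the fit. Under ordinary variance and adjusted p, the 3 astrocyte comparisons with calls had 0 members, and in microglia Bcl2l1 in T/5z/N against DMSO (-0.74), Pmaip1 in T/S/Z/N against DMSO (0.90) and Bmf in T/S/Z against T/5z (-1.25) lost their calls. With a replicate left out, members called ran from 0 to 1 for T/S/Z/N against T/5z/N and 2 to 4 for the interaction. On replicate 4 alone the role ratio in T/5z/N was 4.29.

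Genes called in microglia were, in the order T/5z and T/S/Z against DMSO, T/5z/N against T/5z, T/S/Z/N against T/S/Z, T/5z/N against DMSO, T/S/Z/N against DMSO, T/S/Z against T/5z, T/S/Z/N against T/5z/N and interaction, 2563, 3118, 754, 1270, 1352, 1481, 1035, 356 and 681. They were 1077, 1202, 182, 335, 573, 596, 399, 72 and 227 with a fold minimum of 2. They were 1485, 1633, 314, 514, 809, 861, 611, 159 and 396 with 5 added, and 1463, 1705, 385, 628, 851, 915, 652, 227 and 426 with a mean log2 of at least 3. In astrocytes, for Nec-1s, T/S/Z, T/S/Z/N against T/S/Z and T/S/Z/N against DMSO, they were 2, 2130, 429 and 1257. There a fold minimum of 2 gave 1, 766, 107 and 386, 5 added gave 0, 985, 180 and 542, a mean log2 of at least 3 gave 10, 1094, 225 and 639, and ordinary variance with adjusted p gave 0, 281, 3 and 50. Nec-1s alone had 2 genes in microglia and 9 in astrocytes with ordinary variance and unadjusted p, and 0 in astrocytes with no filter. With a replicate left out it had 0 to 1 and 0 to 16, and astrocyte T/S/Z/N against T/S/Z had 274 to 761.

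Median centring moved the share of calls that were higher from 41.1% to 52.7% with T/S/Z and from 44.3% to 28.9% with T/S/Z/N against T/S/Z in microglia. The moves for T/5z (45.5% to 53.6%, so that more calls were higher than lower) and T/5z/N against T/5z (36.9% to 27.2%) were smaller, as were those for T/5z/N against DMSO (47.9% to 50.5%) and astrocyte T/S/Z/N against DMSO (48.1% to 57.8%). Quantile normalization moved it from 41.5% to 52.1% with T/S/Z and from 48.1% to 59.1% with T/S/Z/N against DMSO in astrocytes.

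Without the replicate block, member counts were the same in all 14 comparisons, and astrocyte Nec-1s had 0 genes called. Deviations of samples with the same number correlated from -0.458 to 0.257 in microglia, where the removed replicate means leave the check uninformative, and from -0.144 to 0.411 in astrocytes, so the numbers are not shown to pair the libraries.

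Depth limits low members most: Bcl2 in microglia and Bmf in T/S/Z lie where the added 1 shapes the fold, and depth is unknown for 18 of the 24 microglial libraries.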
